A study of Mus with 7 samples.

Results

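Antigen presentation and costimulation were followed through 10 genes in fetal liver-derived macrophages (FLMs), as a set chosen by gene symbol from the 31053 genes of the count tables. The set held H2-K1, H2-D1 and B2m, which encode MHC class I. Psmb8, Psmb9, Tap1 and Tapbp supply and load peptides onto class I, Cd74 encodes the invariant chain of MHC class II, and Cd83 and Cd86 encode costimulatory surface proteins. All 10 were found, and each was detected by a UMI (unique molecular identifier, 1 captured RNA molecule) in 25% or more of cells in 1 or more libraries.

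FLMs are a self-renewing macrophage culture grown from fetal liver of wild-type C57BL/6J mice with 30 ng/mL GM-CSF, so they lack the tissue and the T cells to which antigen would be presented. Con cells were collected in 10% FBS before any treatment. The other 6 libraries came from cells held for 24 h in 0.25% FBS with GM-CSF and either 8.3 µM BSA alone (Veh) or 25 µM docosahexaenoic acid, an omega-3 fatty acid, carried on 8.3 µM BSA (DHA). Cells were then collected directly (Veh.LPS.0, DHA.LPS.0) or after the medium was exchanged for 20 ng/mL lipopolysaccharide (LPS), a bacterial TLR4 ligand, for 1 h (Veh.LPS.1, DHA.LPS.1) or 4 h (Veh.LPS.4, DHA.LPS.4). No library had this exchange without LPS, so LPS, the exchange and the added hours of culture cannot be told apart. Each condition was 1 single-cell library, so no difference has a replicate check, no p-value was computed, and every interval covers counting error only.

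MHC class I displays peptides cut from the cell's own proteins to CD8 T cells. The proteasome cuts the proteins, with Psmb8 and Psmb9 among the catalytic subunits that form the immunoproteasome, the TAP transporter carries the peptides into the endoplasmic reticulum, and tapasin (Tapbp) holds empty class I at the transporter until a heavy chain with B2m has taken one up. MHC class II displays peptides from engulfed material to CD4 T cells, and the invariant chain (Cd74) guards its groove on the way. Costimulatory proteins such as Cd86 give T cells the further signal they need, and macrophages are known to raise many of these genes in response to microbial ligands and interferons.

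Barcodes were kept with over 20000 UMIs, at least 2000 genes and under 20% mitochondrial UMIs. This left 692 to 3073 cells per library with median depths of 29369 to 56239 UMIs, and a pair of libraries shared at most 4 barcodes. A mitochondrial share of at least 20% was found in 29.0% of Con barcodes, in 35.8% to 54.7% of Veh barcodes and in 74.4% to 80.0% of DHA barcodes, so the DHA values describe a smaller retained part of their libraries. The part of this filter in the differences between DHA and Veh was not tested, and members whose DHA to Veh ratio turned or passed the limit without it are given with those values. The cells had the markers of macrophages, whose 9 listed genes summed to 5817 to 7089 CPM (the UMIs of a gene scaled to a fixed total of UMIs in the kept cells) with at least 3 of them in 100% of cells. The 7 dendritic cell markers summed to at most 1.95 CPM and the 4 T cell markers to at most 0.0636 CPM, with Ccr7, Cd209a, Cd3e and Cd8a at 0 in every library. A gene was counted as higher or lower when its CPM differed by more than 1.5-fold and 1 of the compared libraries had a UMI of it in no fewer than 25% of cells. This share was taken without matching the libraries for depth. The share of all genes that passed is given beside each count of members, but not for counts in other sets of cells or at other limits.

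**Figure D1:**
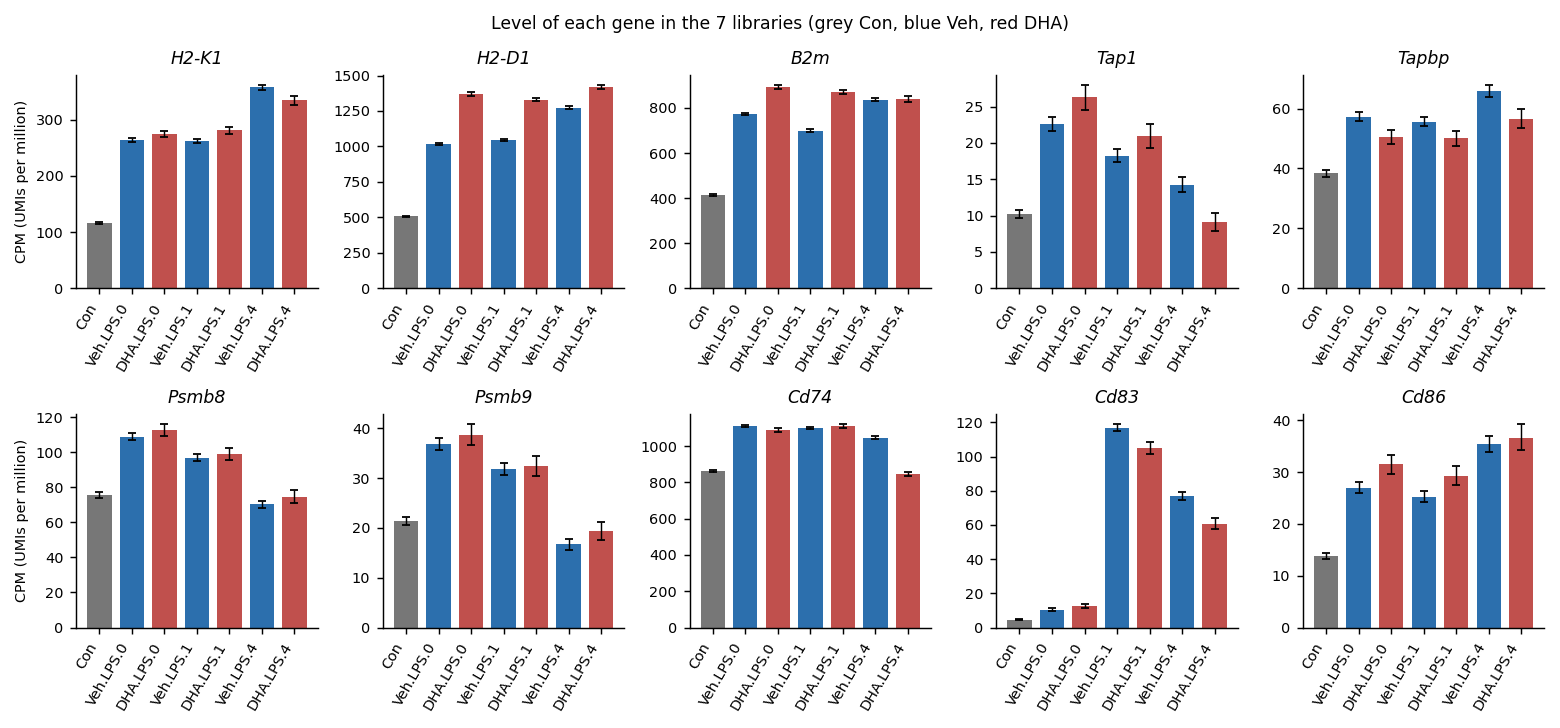
Level of each of the 10 genes in CPM (vertical axes, each from 0) in the 7 libraries (horizontal axes; grey Con, blue Veh, red DHA), with exact Poisson 95% intervals on the summed UMIs as error bars. Cd83 stands between 60.7 and 117 CPM in the 4 LPS libraries and at or below 12.4 CPM in the other 3, while Psmb8 and Psmb9 are lowest in the 2 libraries of 4 h of LPS together with Con.

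The shift from 10% FBS to 24 h of reduced serum with BSA went with higher values of the whole set. From Con to Veh.LPS.0, 7 of the 10 genes rose (H2-K1, H2-D1, B2m, Tap1, Psmb9, Cd83 and Cd86) and 0 fell, where 9.31% of all 8252 genes tested were higher and 7.76% lower. All 10 log2 ratios were above 0, with a median of 0.93 beside -0.07 over all genes. In the cells with no UMI of the proliferation genes Mki67 and Top2a, 117 in Con and 302 in Veh.LPS.0, the count was 3 higher (H2-K1, Psmb9 and Cd86). This count has no share of all genes in those cells beside it. There the log2 ratio of Cd74 was 0.01 in place of 0.36 and that of Cd83 -0.56 in place of 1.19, while the other members stayed above 0. Serum, BSA and 24 h of further culture changed together between these libraries and cannot be told apart.

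Among the class I genes, H2-K1 (chromosome 17, 33996012 to 34000619, build GRCm38.p6, RefSeq annotation) encodes a classical heavy chain. Its level in Con was 116 CPM. At 0, 1 and 4 h the Veh libraries measured 264, 263 and 357 CPM and the DHA libraries 275, 281 and 334 CPM. Con was lowest by far, the 4 libraries at 0 and 1 h were close together, and the libraries at 4 h were highest. Veh.LPS.0 stood 2.28-fold above Con (95% interval 2.23 to 2.33), Veh.LPS.1 did not differ from Veh.LPS.0 beyond counting error (ratio 0.995, 0.978 to 1.013), and Veh.LPS.4 was at 1.36 times Veh.LPS.0 (1.33 to 1.38), within the limit of 1.5-fold.

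H2-D1 (chromosome 17, 35263094 to 35267497) encodes the other classical heavy chain of this strain. The Con level was 508 CPM, and in time order Veh gave 1016, 1043 and 1274 CPM and DHA 1371, 1330 and 1419 CPM. Every DHA library was above the Veh library of its hour, and at least 1 UMI was found in 100% of the cells of each library at its full depth. Veh.LPS.0 was 1.998-fold above Con (1.98 to 2.02). The heavy chains are close in sequence to each other and to the other class I genes, so how their reads were divided among them is uncertain.

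B2m (chromosome 2, 122147687 to 122153082) encodes the light chain that every class I heavy chain pairs with. It lies inside the annotated span of Patl2, which had at most 0.428 CPM. Its level was 414 CPM in Con. Over the hours of LPS it was 772, 700 and 837 CPM with Veh, and 893, 871 and 839 CPM with DHA. Con was again lowest, and Veh.LPS.4 and DHA.LPS.4 did not differ beyond counting error (DHA over Veh 1.00, 0.985 to 1.02). The step from Con to Veh.LPS.0 was 1.86-fold (1.84 to 1.88).

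Of the 4 genes of peptide supply, Tap1 and Psmb9 rose from Con to Veh.LPS.0, while Psmb8 (1.44-fold) and Tapbp (1.49-fold) were within the limit. Psmb9, Tap1 and Psmb8 are neighbours on chromosome 17, with 225 bases between Psmb9 (34182030 to 34187330) and Tap1 (34187556 to 34197225) and 969 bases between Tap1 and Psmb8 (34198195 to 34201454). At 4 h of LPS these 3 genes fell, and they were the only members that did so against the library without LPS, in Veh and in DHA alike. In Veh.LPS.4 against Veh.LPS.0, 1 member rose (Cd83) and 3 fell, where 10.2% of 8385 genes were higher and 38.3% lower. DHA.LPS.4 against DHA.LPS.0 also gave 1 higher and 3 lower, the same genes, where 9.64% of 8477 genes were higher and 33.6% lower. These 2 comparisons share no library, and a fall was common among all genes in both.

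That common fall depends on the scaling. With the library totals the median log2 ratio of all genes was -0.36 in Veh.LPS.4 against Veh.LPS.0 and -0.29 in DHA.LPS.4 against DHA.LPS.0, and with TMM factors, which scale by a trimmed mean of the gene ratios, it was 0.07 and 0.01. Under TMM 21.6% of genes were higher and 21.1% lower in the Veh comparison, and 18.3% higher and 21.0% lower in the DHA comparison. Under TMM the counts of members became 5 higher (H2-K1, H2-D1, Tapbp, Cd83, Cd86) and 1 lower (Psmb9) in Veh, and 1 higher (Cd83) and 2 lower (Tap1, Psmb9) in DHA. Psmb9 and Cd83 kept their call under both scalings, while Tap1 in Veh and Psmb8 in both treatments stayed below 0 without passing the limit.

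Psmb9 encodes an immunoproteasome subunit. Con cells held 21.5 CPM, Veh cells 36.8, 31.9 and 16.7 CPM and DHA cells 38.8, 32.5 and 19.3 CPM, each at 0, 1 and 4 h. Both treatments were highest at 0 h, lower at 1 h and lowest at 4 h. With the library totals the 4 h levels were below Con, but with TMM they were not. The TMM factors were 1.07 in Con, 0.819 in Veh.LPS.4 and 0.891 in DHA.LPS.4. Veh.LPS.4 stood at 0.453 times Veh.LPS.0 (0.422 to 0.487), or -1.14 on the log2 scale against -0.71 with TMM. DHA.LPS.4 stood at 0.498 times DHA.LPS.0 (0.446 to 0.556). Against Veh.LPS.1 the ratio of Psmb9 in Veh.LPS.4 was 0.524 (0.487 to 0.564), past the limit as well.

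Psmb8 encodes the partner subunit. Its levels were 75.6 CPM in Con, then 109, 96.9 and 70.3 CPM along the Veh series and 113, 98.9 and 74.7 CPM along the DHA series. With the library totals the order of the libraries was the same as for Psmb9. Over the 7 libraries the log2 levels of these genes had a Pearson r of 0.99, the highest of any pair of members. The ratio of Veh.LPS.4 to Veh.LPS.0 was 0.645 (0.622 to 0.669) and that of DHA.LPS.4 to DHA.LPS.0 was 0.663 (0.626 to 0.703). DHA and Veh did not differ beyond counting error at 0 h (1.03, 0.996 to 1.07) or 1 h (1.02, 0.979 to 1.06). Without the filter on barcodes the log2 ratios of DHA to Veh at 0, 1 and 4 h were -0.19, -0.27 and -0.23 for Psmb8, in place of 0.05, 0.03 and 0.09, and -0.20, -0.27 and -0.20 for Psmb9, in place of 0.07, 0.03 and 0.21.

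Tap1 encodes a subunit of the peptide transporter. The level in Con was 10.2 CPM. The Veh series ran 22.6, 18.2 and 14.3 CPM and the DHA series 26.3, 20.9 and 9.07 CPM. With the library totals the level in both treatments was highest without LPS and lowest at 4 h, and DHA was above Veh at 0 and 1 h and below it at 4 h. The log2 ratio of Veh.LPS.4 to Veh.LPS.1 was -0.35, but -0.01 with TMM and 0.27 in cells without Mki67 or Top2a UMIs. The step from Con to Veh.LPS.0 was 2.21-fold (2.06 to 2.37). Tap1 stood at 0.632 times its level without LPS in Veh.LPS.4 (0.583 to 0.685) and at 0.345 times in DHA.LPS.4 (0.295 to 0.403), and DHA.LPS.4 did not differ from Con beyond counting error (Con over DHA.LPS.4 1.13, 0.969 to 1.31).

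Tapbp (chromosome 17, 33919478 to 33929290), which encodes tapasin, did not share that course. It stood at 38.4 CPM in Con, and by hour of LPS at 57.3, 55.5 and 65.9 CPM after Veh and 50.4, 50.04 and 56.6 CPM after DHA. Tapbp was highest in Veh.LPS.4, and DHA was below Veh at each hour, by 0.879 times (0.833 to 0.927), 0.901 times (0.851 to 0.953) and 0.859 times (0.805 to 0.916). Without the filter on barcodes this order turned at every hour, with log2 ratios of DHA to Veh of 0.27, 0.28 and 0.04. The step from Con to Veh.LPS.0 of 1.49-fold (1.44 to 1.55) and all LPS ratios of Tapbp with the library totals were within the limit. TMM put its 4 h ratio in Veh past the limit. The lncRNA gene Gm19412 overlaps one end of Tapbp and had at most 1.33 CPM.

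**Figure D2:**
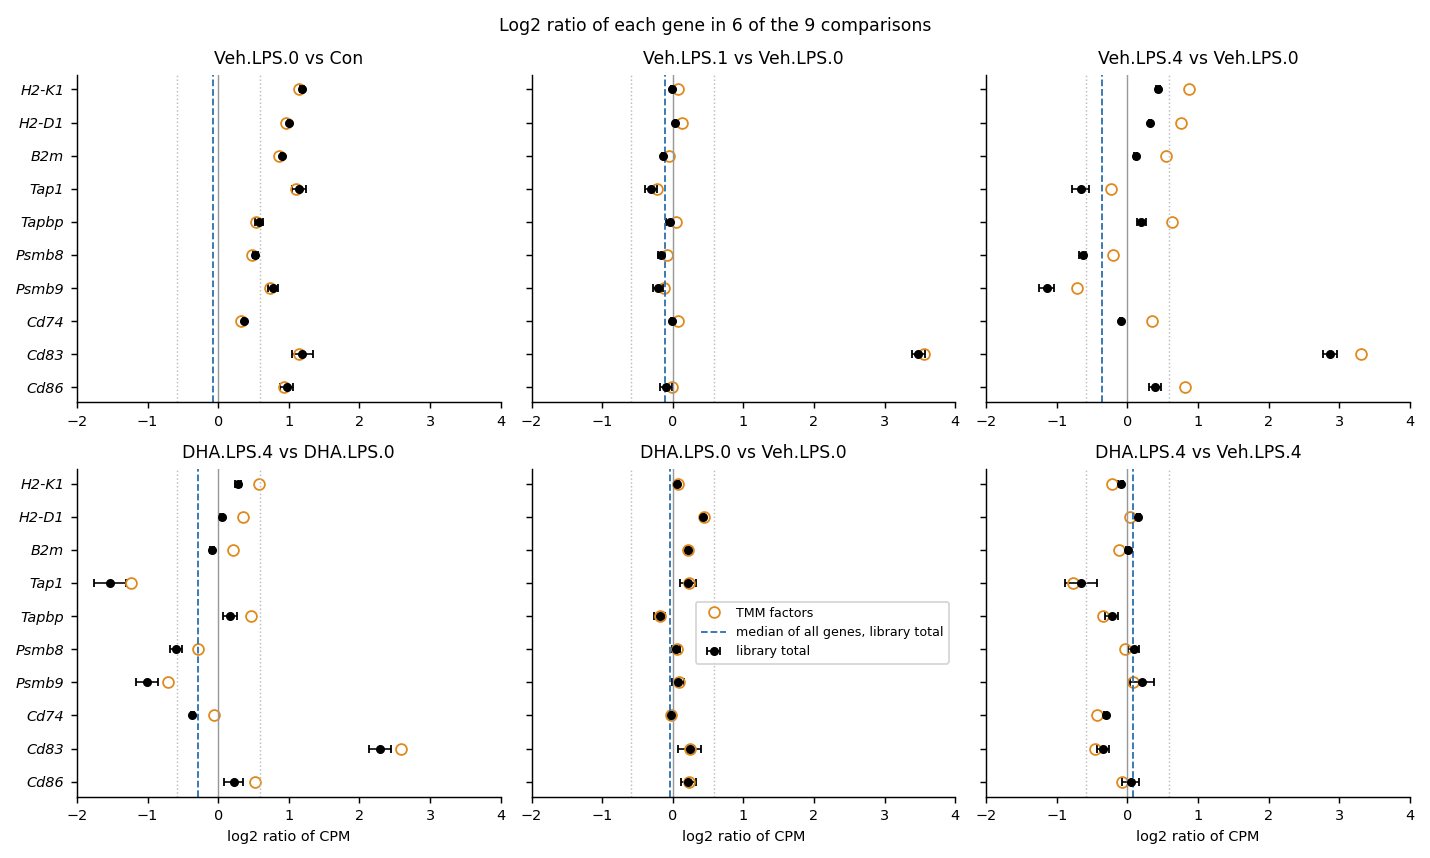
Log2 ratio of CPM (horizontal axes) for the 10 genes (rows) in 6 comparisons, as filled points with 95% counting intervals for the library totals and open circles for TMM factors. Dashed lines mark the median of all genes with library totals and dotted lines the 1.5-fold limit. Psmb9 is the only gene below the lower limit under both scalings in Veh.LPS.4 against Veh.LPS.0, and Cd74 there moves from -0.08 to 0.35 with TMM.

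With the library totals Cd74 (chromosome 18, 60803849 to 60812652) had the narrowest range of the 10 genes, with the highest library at 1.31 times the lowest. It measured 862 CPM in Con. In time order it was at 1110, 1101 and 1047 CPM after Veh and at 1089, 1110 and 845 CPM after DHA, and a UMI was found in nearly every cell. The 4 libraries at 0 and 1 h of the treated cells lay between 1089 and 1110 CPM, and DHA.LPS.4 was lowest with this scaling. Cd74 passed the limit in none of the 9 comparisons. Its log2 ratio in Veh.LPS.4 against Veh.LPS.0 was -0.08 with the library totals and 0.35 with TMM, so no direction is given for it there.

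The class II chains that the invariant chain accompanies were nearly absent beside it. This set of genes was singled out after the values had been seen. Over all 7 libraries together there were 13 UMIs of H2-Aa, 16 of H2-Ab1 and 18 of H2-Eb1, which encode class II chains, and 10 of Ciita, the master regulator of class II transcription. Most of these UMIs came from 1 cell of the 3073 in Veh.LPS.1, with 13 UMIs of H2-Aa, 8 of H2-Ab1, 14 of H2-Eb1 and 111 of Cd74 among its 29491 UMIs. In Con, 0 UMIs of H2-Aa, H2-Eb1 or Ciita were found, which allows up to 0.0239 CPM of each, and a single UMI of H2-Ab1. H2-DMa, which encodes a chain of the class II peptide editor, had 2.73 to 7.31 CPM, whereas its partner H2-DMb1 had at most 0.181 CPM.

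Cd83 (chromosome 13, 43785112 to 43803133) is a surface protein of activated antigen-presenting cells that steadies class II and Cd86 on the membrane. It had the largest ratios of any member between libraries with and without LPS. Con held 4.61 CPM of it. From 0 to 1 to 4 h it went through 10.5, 117 and 76.9 CPM after Veh and 12.4, 105 and 60.7 CPM after DHA. The 4 libraries with LPS stood far above the 3 without it, with 1 h above 4 h in both treatments. Cd83 rose 11.1-fold in Veh.LPS.1 over Veh.LPS.0 (10.4 to 11.9), the 34th highest ratio of 8089 genes, and 8.48-fold in DHA.LPS.1 over DHA.LPS.0 (7.67 to 9.39), the 37th of 8474. Its step from Con to Veh.LPS.0 was 2.28-fold (2.06 to 2.53), but in the cells without Mki67 or Top2a UMIs the log2 ratio was -0.56 in place of 1.19, and 3 of the 117 such Con cells held 45.5% of their Cd83 UMIs.

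At 1 h Cd83 was the only member past the limit in either treatment. The counts were 1 higher and 0 lower of 10 in Veh, where 4.15% of all genes were higher and 4.24% lower, and 1 higher and 0 lower in DHA, where 4.66% were higher and 4.97% lower. At 4 h Cd83 stood 7.33-fold above Veh.LPS.0 in Veh (6.85 to 7.85) and 4.90-fold above DHA.LPS.0 in DHA (4.40 to 5.48). Between 1 and 4 h in Veh, 0 members rose and 2 fell, Psmb9 and Cd83, where 7.98% of genes were higher and 29.3% lower with a median log2 ratio of -0.25. The ratio of Cd83 was 0.658 (0.636 to 0.682), or -0.60 on the log2 scale with library totals and -0.26 with TMM, where it was within the limit.

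Cd86 (chromosome 16, 36568956 to 36666158), the B7-2 ligand of CD28 on T cells, moved far less. Its level was lowest in Con, at 13.8 CPM. After Veh it was 27.0, 25.2 and 35.4 CPM by hour, and after DHA 31.5, 29.3 and 36.7 CPM. The step from Con to Veh.LPS.0 was 1.956-fold (1.84 to 2.08). The ratio at 4 h of LPS was smaller, at 1.31 in Veh (1.24 to 1.39) and 1.16 in DHA (1.06 to 1.28). With TMM the log2 ratios were closer, at 0.93 from Con to Veh.LPS.0 and 0.82 at 4 h in Veh, both past the limit. At 1 h the ratio was 0.935 in Veh (0.885 to 0.989). Its levels in Veh.LPS.4 and DHA.LPS.4 did not differ beyond counting error in the kept cells (log2 ratio 0.05), whereas without the filter on barcodes the log2 ratio was 0.62, past the limit.

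**Figure D3:**
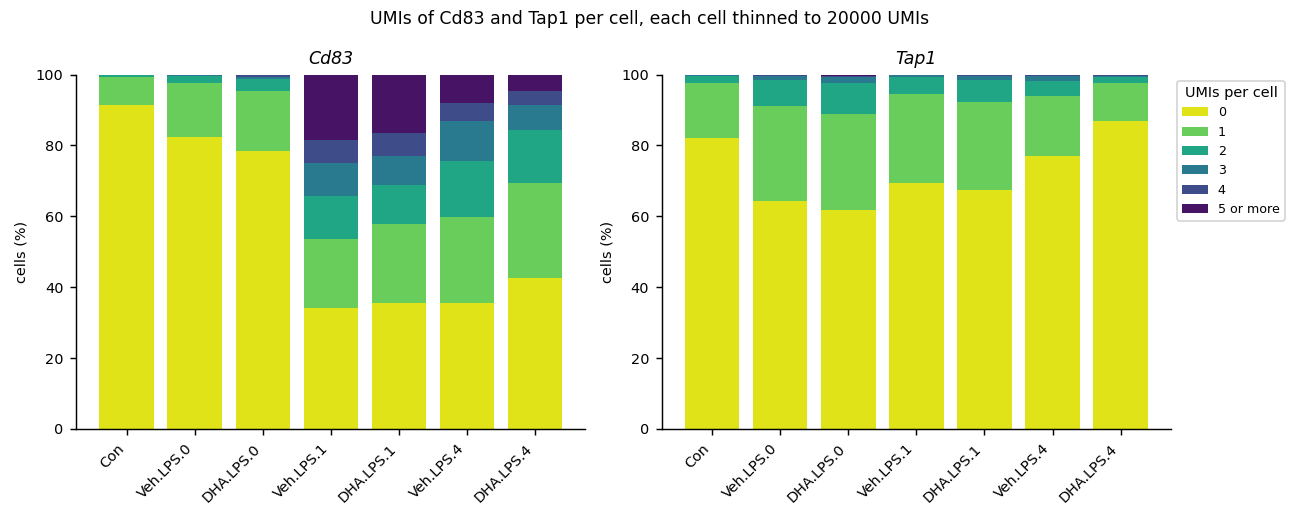
Share of cells (vertical axes, percent) with 0, 1, 2, 3, 4 or at least 5 UMIs (colours) of Cd83 and of Tap1 in the 7 libraries, each cell thinned to 20000 UMIs. Cells with at least 5 Cd83 UMIs make up 18.4% of Veh.LPS.1 and at most 0.143% of any library without LPS, and cells with a Tap1 UMI make up 23.1% of Veh.LPS.4 and 13.2% of DHA.LPS.4.

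Cells were thinned to 20000 UMIs each to compare them at equal depth. Cd83 was then present in 17.5% of the cells of Veh.LPS.0 (95% interval by the exact binomial method 16.02 to 19.0, and 30.5% before thinning), 65.8% of Veh.LPS.1 cells (64.1 to 67.4, and 72.5% before) and 64.5% of Veh.LPS.4 cells (61.4 to 67.4, and 82.4% before). Between 1 and 4 h the share with a UMI thus stayed level in Veh, while the share with at least 5 UMIs went from 18.4% (17.03 to 19.8) to 7.96% (6.35 to 9.82). In DHA the share with a UMI was 64.5% at 1 h (61.1 to 67.9) and 57.5% at 4 h (53.7 to 61.2). The DHA shares with at least 5 UMIs were 16.5% at 1 h (14.0 to 19.2) and 4.77% at 4 h (3.31 to 6.63). The variance of Cd83 UMIs over their mean was 3.80 in Veh.LPS.1 and 3.90 in DHA.LPS.1. Without LPS it was 2.21 in Con, 1.11 in Veh.LPS.0 and 1.43 in DHA.LPS.0. The mean also differed, with 2.38 UMIs per cell in Veh.LPS.1 and 0.203 in Veh.LPS.0. Whether cells differed more from each other than these means entail was not tested. No cell type known to lack these genes was present in which to measure free RNA, so these shares have no such background beside them.

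Cells that held more Cd83 also held more of a set of early response genes. As a description chosen after the values were seen, the genes with the highest Pearson r with Cd83 over the 3073 cells of Veh.LPS.1, on log2 UMIs of thinned cells, were Mcl1 (0.39), Malt1 (0.33), Junb (0.33), Nfkbiz (0.32) and Dusp2 (0.31). Mcl1 encodes a survival factor, Malt1 and Nfkbiz act in NF-κB signalling and Junb is a subunit of AP-1. Mcl1 (0.36), Junb (0.36) and Malt1 (0.33) were again among the 5 genes with the highest r in DHA.LPS.1, with Tnfsf9 (0.34) and Zfp36 (0.34). All cells of a library share its preparation, and the r of Cd83 with the UMIs of another member ran from -0.14 to 0.16 over all libraries.

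DHA was set beside Veh at each hour. By the limits, 0 members were higher and 0 lower at 0 h, where 1.08% of 8434 genes were higher and 0.949% lower, and 0 and 0 at 1 h, where 1.33% of 7794 genes were higher and 1.73% lower. At 4 h 0 were higher and 1 was lower, Tap1, where 2.22% of 7672 genes were higher and 2.42% lower. Without the filter on barcodes these counts were 2 higher at 0 h (H2-D1, Tap1), 4 higher at 1 h (H2-D1, B2m, Tap1, Cd86), and 1 higher (Cd86) and 0 lower at 4 h. The shares of all genes above are for the kept cells and cannot be set against these counts, which have no share beside them.

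Tap1 at 4 h stood at 0.636 times Veh in DHA (0.542 to 0.743), resting on 200 UMIs in DHA.LPS.4 and 836 in Veh.LPS.4. It was the 159th lowest ratio of the 7672 genes. With TMM the log2 ratio went from -0.65 to -0.78. In thinned cells the share with a Tap1 UMI was 13.2% in DHA.LPS.4 (10.7 to 15.9) and 23.1% in Veh.LPS.4 (20.5 to 25.8), and before thinning 19.8% and 43.3%. Only the share of Veh.LPS.4 before thinning reached the limit on the share of cells. Veh.LPS.4 was the deepest library, so this count of Tap1 depends on unmatched depth. At 0 and 1 h the DHA to Veh ratio of Tap1 was 1.16 (1.08 to 1.26) and 1.15 (1.05 to 1.25).

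The other members that stood farthest from Veh at 4 h were Cd83 and Cd74, both within the limit. Cd83 had 0.790 times the Veh level (0.742 to 0.839), the 417th lowest ratio, and Cd74 had 0.808 times (0.794 to 0.821), the 477th lowest. Under the 9 alternatives in scaling and cells, the log2 ratio of Cd83 ran from -0.46 to -0.16 and that of Cd74 from -0.43 to -0.15. The change from 0 to 4 h of LPS in DHA minus that in Veh, on the log2 scale, was -0.87 for Tap1 (-1.12 to -0.62), -0.58 for Cd83 (-0.76 to -0.40) and -0.28 for Cd74 (-0.31 to -0.25), with intervals by the normal approximation on the log scale. This difference was also below 0 for H2-D1 (-0.28, -0.30 to -0.25), B2m (-0.21, -0.24 to -0.18), Cd86 (-0.17, -0.33 to -0.02) and H2-K1 (-0.16, -0.21 to -0.11). For Tapbp, Psmb8 and Psmb9 it was -0.03 (-0.15 to 0.09), 0.04 (-0.06 to 0.14) and 0.14 (-0.05 to 0.32). Cd83 stood at 1.18 times Veh in DHA already at 0 h (1.05 to 1.32), which enters its difference. The 0 h level also enters those of H2-D1, B2m and Cd86, at 1.35, 1.16 and 1.17 times Veh. At 4 h these genes were at 1.11, 1.00 and 1.04 times Veh. Without the filter on barcodes the log2 change of Cd86 was 0.49 in DHA and 0.41 in Veh, the other order. That of B2m was 0.06 and 0.08. Over all genes the median change was -0.29 in DHA and -0.36 in Veh.

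At 0 h and at 1 h, 8 of the 10 members had a log2 ratio of DHA to Veh above 0, beside 39.4% and 37.7% of all genes. Among them Psmb8 and Psmb9 at both hours and Cd74 at 1 h did not differ from Veh beyond counting error. At 4 h 5 of the 10 were above 0, beside 64.7% of all genes. The median over the members was 0.14 at 0 h, 0.06 at 1 h and -0.05 at 4 h. Over all genes it was -0.05, -0.05 and 0.08. H2-D1 stood above Veh in DHA at every hour. DHA was at 1.35 times Veh at 0 h (1.33 to 1.36), the 205th highest ratio of 8434 genes, at 1.27 times at 1 h (1.26 to 1.29) and at 1.11 times at 4 h (1.10 to 1.13), where TMM brought the log2 ratio from 0.16 to 0.03. B2m was at 1.16 times (1.14 to 1.17), 1.24 times (1.23 to 1.26) and 1.00 times. H2-K1 was at 1.04 times (1.02 to 1.07), 1.07 times (1.04 to 1.10) and 0.936 times (0.911 to 0.961), and without the filter on barcodes its log2 ratio at 4 h was 0.25 in place of -0.10. Without the filter on barcodes the log2 ratio of H2-D1 at 0 h was 0.76 in place of 0.43 and that of Tap1 was 0.63 in place of 0.22, past the limit in both. At 1 h it was 0.66 for H2-D1, 0.73 for B2m, 0.66 for Tap1 and 0.61 for Cd86, all past the limit, and for Cd83 it was 0.18 in place of -0.15. At 0 h Cd74 was at 0.08 in place of -0.03, and at 4 h B2m was at 0.48 in place of 0.003.

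**Figure D4:**
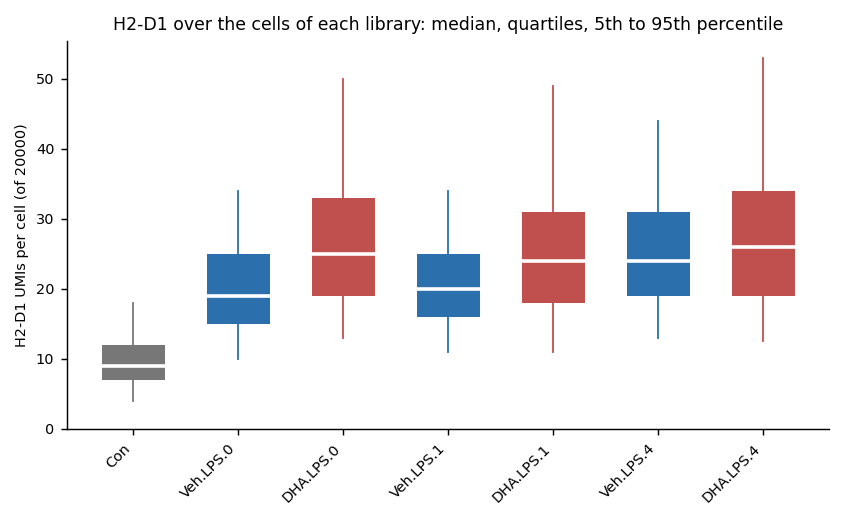
UMIs of H2-D1 per cell (vertical axis, of 20000 UMIs per cell) in the 7 libraries, with medians as white lines, quartiles as boxes and the 5th to 95th percentile as thin lines. The median is 25 UMIs in DHA.LPS.0 and 19 in Veh.LPS.0, and the 95th percentile is 50 against 34.

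The higher level of H2-D1 in DHA without LPS came with a wider spread over cells. In thinned cells the quartiles of H2-D1 were 15, 19 and 25 UMIs in Veh.LPS.0 and 19, 25 and 33 UMIs in DHA.LPS.0, and the highest 5% of cells had at least 34 and 50 UMIs. The variance over the mean was 2.85 in Veh.LPS.0 and 6.24 in DHA.LPS.0. Over the cells of a library the UMIs of H2-D1 went with those of H2-K1 (Pearson r 0.38 in Veh.LPS.0 to 0.59 in DHA.LPS.1) and of B2m (0.29 in Veh.LPS.0 to 0.57 in DHA.LPS.4), the highest r values among the members. Again chosen after the values were seen, genes were ranked by their r with H2-D1 on log2 UMIs. In DHA.LPS.0 the genes after H2-K1 (0.48) were Grn (0.38), Plin2 (0.36), Ctsd (0.36) and B2m (0.35), with S100a4 lowest (-0.36). Grn and Ctsd encode lysosomal proteins and Plin2 a coat protein of lipid droplets. In Veh.LPS.0 the genes after H2-K1 (0.34) were B2m (0.26), H2-Q7 (0.20), H2-Q4 (0.14) and Grn (0.14), of which H2-Q7 and H2-Q4 are class I genes.

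The members also differed in how they went with the type I interferon response of single cells. Cells with more than 11 UMIs of 17 listed interferon-stimulated genes, none of them a member, made up 0.967% of Veh.LPS.0, 22.9% of Veh.LPS.4 (20.3 to 25.6) and 8.96% of DHA.LPS.4 (6.94 to 11.3). Before 4 h the order of the treatments was the opposite, with 3.87% of DHA.LPS.0 (2.56 to 5.58), and with 6.04% of DHA.LPS.1 (4.48 to 7.93) against 1.59% of Veh.LPS.1 (1.18 to 2.103). Con had 0.309%. The limit was set at the percentile that left 0.967% of cells above it in Veh before LPS, and 133 of the 993 Veh.LPS.4 cells lay within 2 UMIs of it. It cuts a range and marks no cell type.

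In Veh.LPS.4 the 227 cells above that limit had 0.687 Tap1 UMIs per cell on average and the other 766 cells 0.209, a ratio of 3.29. The ratio was 1.78 for Tapbp, 1.62 for Psmb8, 1.46 for Psmb9 and 1.29 for Cd86. It was 1.19 for B2m, 1.15 for H2-D1, 1.12 for Cd74, 1.10 for Cd83 and 1.06 for H2-K1. By this ratio, which carries no interval, the 4 genes of peptide supply were highest in Veh.LPS.4. The Pearson r with the UMIs of the interferon list over the same cells gave another order. Tap1 (0.44) and Tapbp (0.35) led, but B2m (0.26) came before Psmb8 (0.25), and H2-D1 (0.17) before Psmb9 (0.12). In DHA.LPS.4, with 62 cells above the limit, Tap1 again had the highest ratio, 3.75, followed by Psmb8 at 1.70. There Cd86 (1.49) and H2-D1 (1.46) came before Tapbp (1.42), and B2m (1.34) and H2-K1 (1.32) before Psmb9 (1.17), so the order in Veh.LPS.4 was not found for the other genes of peptide supply. The r of Tap1 in DHA.LPS.4 was 0.158, below that of H2-D1 (0.257), B2m (0.254), H2-K1 (0.164) and Psmb8 (0.160).

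The cells not above the limit were not matched for the interferon list, whose median over all cells was 5 UMIs in Veh.LPS.4 and 1 in DHA.LPS.4. The part of the interferon response in the differences between these libraries was therefore not tested. Tap1 was lower in DHA.LPS.4 also among the cells not above the limit. There it had 0.133 UMIs per cell against 0.209 in Veh.LPS.4, a ratio of 0.638 (0.484 to 0.836). Over all thinned cells, those above the limit included, the means were 0.166 and 0.318 UMIs. For Cd83 the ratio among these cells was 0.782 (0.714 to 0.857) and for Cd74 0.812 (0.792 to 0.832).

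**Figure D5:**
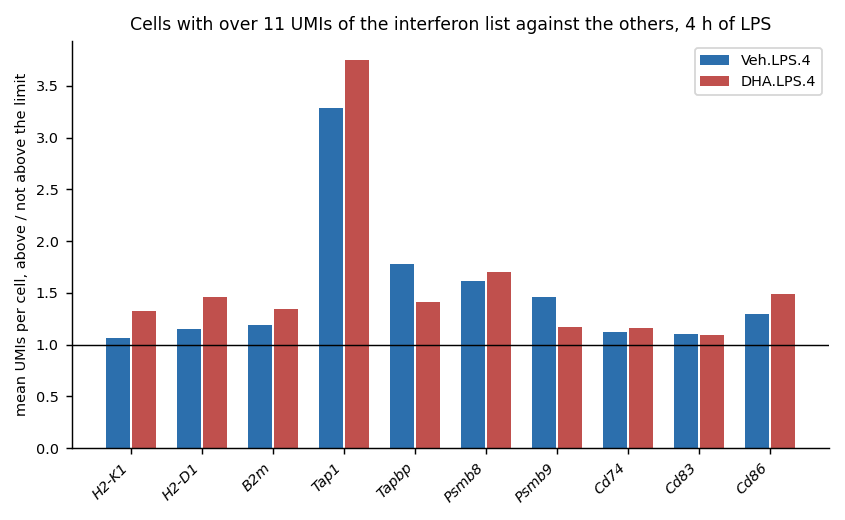
Mean UMIs per cell above the interferon limit divided by the mean in the other cells of the library (vertical axis) for the 10 genes, in Veh.LPS.4 (blue, 227 and 766 cells) and DHA.LPS.4 (red, 62 and 630 cells), all thinned to 20000 UMIs. Tap1 has the highest ratio in both libraries, 3.29 and 3.75, and Cd83 is at 1.10 and 1.09.

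The members were then set among 60 other genes of antigen presentation and costimulation, of which 39 reached the share of 25% of cells in some library. From Con to Veh.LPS.0, 11 of the 33 tested rose and 3 fell, where 9.31% of all genes were higher and 7.76% lower. The 6 tested class I heavy chains all rose, led by Mr1, which presents vitamin metabolites to MAIT cells, at 7.70-fold (6.59 to 9.03) and H2-Q7 at 3.77-fold (3.43 to 4.15). The lowest ratios belonged to chaperones of the loading complex, with calreticulin (Calr) at 0.487 (0.483 to 0.492) and Pdia3 at 0.606 (0.597 to 0.614).

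At 4 h of LPS, 8 of 37 such genes rose and 9 fell in Veh, and 4 of 37 rose and 11 fell in DHA. Over all genes 10.2% were higher and 38.3% lower in Veh, and 9.64% and 33.6% in DHA. With TMM the counts became 16 higher and 6 lower in Veh and 10 higher and 11 lower in DHA. Under TMM 21.6% of all genes were higher and 21.1% lower in Veh, and 18.3% and 21.0% in DHA. Of the 10 tested genes of costimulation, co-inhibition and adhesion, 6 rose in Veh with the library totals and 8 with TMM, which also put some class I and proteasome genes past the limit. In DHA 3 of 9 rose with the library totals and 6 with TMM. The other 2 called genes of this group, Cd276 and Vsir, fell in both treatments under both scalings. Cd40, the receptor for T cell help, rose 8.63-fold in Veh (7.71 to 9.69) and 3.65-fold in DHA (3.12 to 4.29). Without LPS it was at 3.70 CPM in Veh and 6.57 CPM in DHA, which enters the gap between these folds. At 4 h it was at 31.9 CPM in Veh and 24.0 CPM in DHA. Cd80, the B7-1 partner of Cd86, rose 3.05-fold in Veh (2.85 to 3.27) and 2.83-fold in DHA (2.50 to 3.20). Vsir, which encodes the inhibitory ligand VISTA, fell to 0.117 times its level in Veh (0.0995 to 0.136) and 0.113 times in DHA (0.0863 to 0.145). Mr1 fell to 0.126 times (0.0999 to 0.157) and 0.0861 times (0.0534 to 0.132).

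At 1 h of LPS 3 of 34 rose and 1 fell in Veh, and 3 of 37 rose and 3 fell in DHA, where 4.15% of all genes were higher and 4.24% lower in Veh and 4.66% and 4.97% in DHA. Icam1, an adhesion ligand for T cells, rose 5.06-fold in Veh (4.89 to 5.24) and 4.86-fold in DHA (4.58 to 5.15). Irf1, a transcription factor of the interferon pathway, rose 3.31-fold (2.97 to 3.70) and 5.86-fold (4.92 to 7.02), and March1, which marks class II and Cd86 for degradation, fell to 0.366 times (0.328 to 0.408) and 0.250 times (0.191 to 0.323). In DHA at 1 h Cd274, which encodes the inhibitory ligand PD-L1, was also counted as lower, at 0.414 times (0.341 to 0.4996). Its level went down in Veh as well, from 6.55 CPM without LPS to 2.80 CPM at 1 h. It was not counted there because too few cells held a UMI of it, so this fall was not particular to DHA. From 1 to 4 h in Veh, 7 of 34 rose, led by Cd40 (6.06-fold, 5.49 to 6.70) and Cd274 (4.41-fold, 3.82 to 5.09), and 7 fell, of which Vsir (0.140 times, 0.120 to 0.164) and Cd276 (0.237 times, 0.205 to 0.274) were lowest. Over all genes 7.98% were higher and 29.3% lower. With TMM 10 of the 34 were higher and 4 lower, where 16.7% of all genes were higher and 16.2% lower.

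Between DHA and Veh few of these genes passed the limit, as did few of all genes (1.08% higher and 0.949% lower at 0 h, 1.33% and 1.73% at 1 h, 2.22% and 2.42% at 4 h). At 0 h 2 of 36 were higher, Cd274 at 1.77-fold (1.56 to 2.01) and the class I gene H2-T23 at 1.69-fold (1.54 to 1.84). At 1 h Irf1 at 1.79-fold (1.63 to 1.95) and H2-T23 at 1.76-fold (1.58 to 1.96) were higher of 32. At 4 h 0 of 32 were higher and Irf1 was lower, at 0.559 times (0.459 to 0.677). With TMM 3 were lower, H2-T22 and Lgals9 besides Irf1, the first 2 named after their values were seen. Under TMM 1.25% of all genes were higher and 3.42% lower at 4 h. Irf1 thus stood above Veh at 1 h and below it at 4 h.

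Across the 7 libraries, the genes with the pattern most like each member were found by the Pearson r of log2(CPM + 1) among 8766 genes, as a description over libraries that share controls. For Cd83 they were Tnf (0.99) and Nfkbia (0.99), an inflammatory cytokine and the inhibitor of NF-κB, followed by AC127341.3. Tnf went from 79.1 CPM in Con to 152, 3799 and 2287 CPM along the Veh series and 143, 3482 and 1864 CPM along the DHA series. Tap1 was most like H2-T22 (0.99), a class I gene with 5.97 CPM in Con, 16.5, 11.9 and 7.59 CPM in Veh and 20.0, 15.2 and 5.49 CPM in DHA. B2m was most like H2-M3 (0.99), a class I gene for formylated peptides. Both H2-K1 (with Traf5 and Wfdc17) and Cd86 (with Wfdc18 and Aqp9) had Cd53, a tetraspanin, among their 3 genes. H2-D1 was most like Qpct, Ctsb and Ghitm, Tapbp like Spp1, St3gal6 and Dpys, and Cd74 like Kidins220, Il18 and Sgcb. Psmb8 was most like Wdr35 and Vps28, and Psmb9 like Plscr3, Hsd17b10 and Dnal4.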

How the data were processed

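The authors deposited UMI counts per gene and barcode for each of 7 single-cell libraries made with 10x Genomics 3′ v3 chemistry, as raw counts with no normalization, in 2443 to 5722 barcodes per library. Per the labels and file headers they came from Cell Ranger 3.1.0 on mm10, a version that differs from the one in the paper's methods. Barcodes were filtered as in the paper's methods, their UMIs summed per gene and scaled by the library total (22045775 to 125716982 UMIs) to CPM. Values per cell used cells thinned at random to 20000 UMIs, as did shares of cells where thinning is stated. The limit on the share of cells was applied before thinning, except in the alternative with thinned cells. No doublet caller was run, and cells above 2 times the median UMIs were left out as an alternative. Ratios carry exact binomial (Clopper-Pearson) 95% intervals on the split of a gene's UMIs between libraries. PCR copies are collapsed by the UMIs, and intervals cover counting error only. The paper's test over cells was not used, since cells of 1 library are not replicates. TMM factors came from edgeR 4.0.16 (R 4.3.3); all else used Python 3.11.15, numpy 2.4.6 and scipy 1.17.1. The steps were tested on simulated data. The members and the lists were chosen with earlier results of these data known. All 10 members are named, with the 2 highest and 2 lowest pathway genes past the limits in each comparison and the 3 genes most like a member, except 1 that is not reported here. Coordinates came from RefSeq GRCm38.p6, the same build, matched by symbol for 10 of 10 genes.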

Additional observations from a re-analysis of the deposited data

How the results depend on the processing

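With 1 library per condition no replicate could be left out, and no paired analysis was possible because each condition has 1 library. Of 216 counts of members under the alternatives, 198 stayed within 1.5 times the reported count and 18 did not; the cause was not tested unless the setting itself gives it. From Con to Veh.LPS.0 the count of higher members was 7 and became 3 in cells without Mki67 or Top2a UMIs (117 cells in Con) and 3 with a 2-fold limit. In Veh.LPS.4 against Veh.LPS.0 the 1 higher became 5 with TMM, and the 3 lower became 1 with TMM, 1 in cells without Mki67 or Top2a UMIs and 1 with the 2-fold limit. In Veh.LPS.4 against Veh.LPS.1 the 0 higher became 5 with TMM, and the 2 lower became 1 with TMM, 1 in thinned cells, 1 without the barcode filter and 0 with the 2-fold limit. Under TMM 16.7% of all genes were higher and 16.2% lower in that comparison. Between DHA and Veh, dropping the barcode filter gave 2 higher at 0 h, 4 higher at 1 h, and 1 higher and 0 lower at 4 h in place of Tap1 alone. These counts have no share of all genes beside them. Tap1 at 4 h was also lost from the count in thinned cells, with the 50% share of cells and with the 2-fold limit (0 lower each), while its log2 ratio ran from -0.94 to -0.56 over all alternatives. Of 810 log2 ratios, 46 took the other sign, and 1 of these belonged to a ratio past the limit. This was Cd83 from Con to Veh.LPS.0 in cells without Mki67 or Top2a UMIs, at -0.56 in place of 1.19, where 3 of the 117 Con cells held 45.5% of the Cd83 UMIs. Under TMM 13 log2 ratios took the other sign and without the barcode filter 16, all of them within the limit as reported. Depth limits Tap1, Psmb9, Cd86 and, without LPS, Cd83 most, since their UMIs per thinned cell averaged under 1. Tapbp also averaged under 1 in Con (0.780) and DHA.LPS.1 (0.975).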
